A study of Homo sapiens with 8 samples.

Results

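A set of 9 interferon-stimulated genes, of the 60332 genes measured, was followed through 2 Ewing sarcoma lines in which the enhancer of LOXHD1 had been silenced. The genes were ISG15, IFIT1, IFIT2, IFIT3, IFI6, MX1, OAS1, IRF1 and IRF9. They were chosen by name as common readouts of an interferon response, though with earlier results of these data known. The row of highest mean was taken for each symbol. All 9 had 1 row each and passed the filter on low values, which kept genes whose 8 libraries averaged 1 FPKM or more (FPKM, fragments scaled by transcript length and library size). The question was whether the lentiviral construct, or silencing itself, came with an interferon response in either line. By limma, no member passed the test for a change with eKD2 (enhancer knockdown) in either line. Only 0.343% (RD-ES) and 0.323% (SK-N-MC) of all genes tested passed it. The lack of calls among 9 genes therefore says little by itself. All but IRF9, 8 of the 9, passed as lower in SK-N-MC control than in RD-ES control, as did 26.4% of all genes tested. MX1 and IFIT2 had a SK-N-MC control mean under 1 FPKM and so passed the filter through RD-ES, and 6 of the other 7 were called lower.

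Interferons are secreted proteins that cells release after sensing foreign nucleic acid, which lentiviral particles can provide. Type I interferon binds IFNAR1 and IFNAR2, the kinases JAK1 and TYK2 are activated, and STAT2 and IRF9 enter a complex that binds the interferon-stimulated response element (ISRE) in target promoters. Interferon gamma acts through the gamma-activated sequence (GAS), and IRF1 is a textbook target of it.

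RNA-seq libraries of poly-A RNA were made of the lines RD-ES and SK-N-MC, 2 replicate libraries in each of 4 groups. RD-ES eKD2 and SK-N-MC eKD2 cells carried lentiviral dCas9-KRAB (a Cas9 that cannot cut DNA, fused to a repressor domain) with a guide RNA to the GGAA repeat of the LOXHD1 enhancer. RD-ES control and SK-N-MC control cells received, per the labels, the same virus without that guide, while the study's text speaks of parental cells. Infection was at a multiplicity of infection of 10, with puromycin at 1 µg/ml for 3 days and use within 5 passages, so the cells are selected pools and not clones. No group is labelled as uninfected, so a response to the virus shared by all 4 groups has no comparison here. The sources do not say whether the 2 libraries of a group came from separate infections, and p-values then measure only the spread between those libraries.

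LOXHD1, the silenced gene, fell by 3.46 on the log2(FPKM + 1) scale in RD-ES eKD2 (adjusted p = 0.00011) and fell by 3.73 in SK-N-MC eKD2 (adjusted p = 3.7e-05). Both p come from limma, adjusted over all 15175 genes tested. ZNF10, the gene from which the KRAB domain of such constructs derives, was listed at 8.89 and 9.68 FPKM in the RD-ES controls against 56.1 and 49.0 with eKD2. The SK-N-MC controls gave 7.65 and 10.2 FPKM, and their eKD2 counterparts 65.1 and 59.6. The differences were 2.38 (adjusted p = 0.0032) and 2.68 (adjusted p = 0.0027) on the same scale. The eKD2 libraries thus held more ZNF10 signal than controls that the labels describe as carrying dCas9-KRAB too, and presence of the construct and silencing of the enhancer cannot be told apart in the eKD2 comparison. With each line fitted alone these calls were lost for ZNF10 (adjusted p = 0.11 for RD-ES and 0.15 for SK-N-MC) and for LOXHD1 in RD-ES (adjusted p = 0.059).

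All 7 Ewing sarcoma markers examined, among them CD99, NKX2-2 and STEAP1, were measured in every library, with NR0B1 the lowest at 2.38 FPKM in an RD-ES library. Of 8 leukocyte markers, CD3E, MS4A1 and NKG7 were listed at 0 throughout. Their summed level was 1.74 to 5.54 FPKM across RD-ES libraries and 20.9 to 23.5 FPKM across SK-N-MC libraries, where nearly all of it was PTPRC (19.2 to 22.6 FPKM, against at most 0.017 in RD-ES). Read numbers are not given with the values. Steps of single reads in 309 to 460 low genes put the depth of the other 7 libraries at 0.578 (RD-ES eKD2 replicate 1) to 2.32 times (SK-N-MC control replicate 1) that of RD-ES control replicate 1, a rough estimate shared by 20.4% to 29.4% of those genes.

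Core letters of the elements through which interferon acts were searched in the promoters of the members, and are shown because these genes are the readout of that pathway. RefSeq (GRCh38.p14) gave a promoter for 8 of the 9, with IFIT2 the exception, and the 250 bases before the start were searched on both strands. The ISRE core was taken as TTTCNNTTTC and the GAS core as TTCNNNGAA. Capitals mark the matched letters, and each line is the strand of the gene, 5′ to 3′.
ISG15, chr1:1013372-1013411, plus strand: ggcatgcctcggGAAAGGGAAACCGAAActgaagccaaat
IFIT1, chr10:89392495-89392541, plus strand: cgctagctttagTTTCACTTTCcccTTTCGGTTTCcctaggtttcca
IFIT3, chr10:89327829-89327862, plus strand: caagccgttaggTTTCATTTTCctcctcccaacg
IFIT3, chr10:89327863-89327896, plus strand: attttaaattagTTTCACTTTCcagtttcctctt
IFI6, chr1:27672264-27672319, minus strand: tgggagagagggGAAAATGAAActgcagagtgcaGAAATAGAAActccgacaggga
IRF1, chr5:132490877-132490909, minus strand: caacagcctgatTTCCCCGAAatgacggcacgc
IRF9, chr14:24161190-24161222, plus strand: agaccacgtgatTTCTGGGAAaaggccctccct

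The ISRE core stood in 4 of the 8 promoters (ISG15, IFIT1, IFIT3 and IFI6), with 2 or 3 matches in each, of which the nearest ended 83 to 112 bases before the start. For IFI6 the lines above show the pair nearest to the start. It was found in 52.3% of 44 promoters of other interferon-stimulated effectors and in 3.02% of all 35116 promoters of this length. The GAS core stood in 3 of the 8 promoters and in 6.57% of all promoters. It ended 115 bases before the start in IRF1, 54 in IRF9 and 159 in OAS1. The OAS1 match is not among the lines above. No match in MX1 says only that these letters were not in its window. A match is a description of sequence, and binding was not measured.

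The members lie on 6 chromosomes (GRCh37, GENCODE annotation). ISG15 (chr1:936518-949920) and IFI6 (chr1:27992575-27998723) are on chromosome 1. IFIT2 (chr10:91043451-91069028), IFIT3 (chr10:91087064-91137230) and IFIT1 (chr10:91152303-91166244) form a cluster on chromosome 10. MX1 (chr21:42791947-42841998), OAS1 (chr12:113343661-113371024), IRF1 (chr5:131776132-131844411) and IRF9 (chr14:24630443-24637252) stand apart. Exons of 8 of the 9, all but IFIT1, overlap those of another annotated gene (LIPA for IFIT2 and IFIT3, TMPRSS2 for MX1), and the library kit does not mark strand, so reads from such overlaps cannot be told apart.

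**Figure D1:**
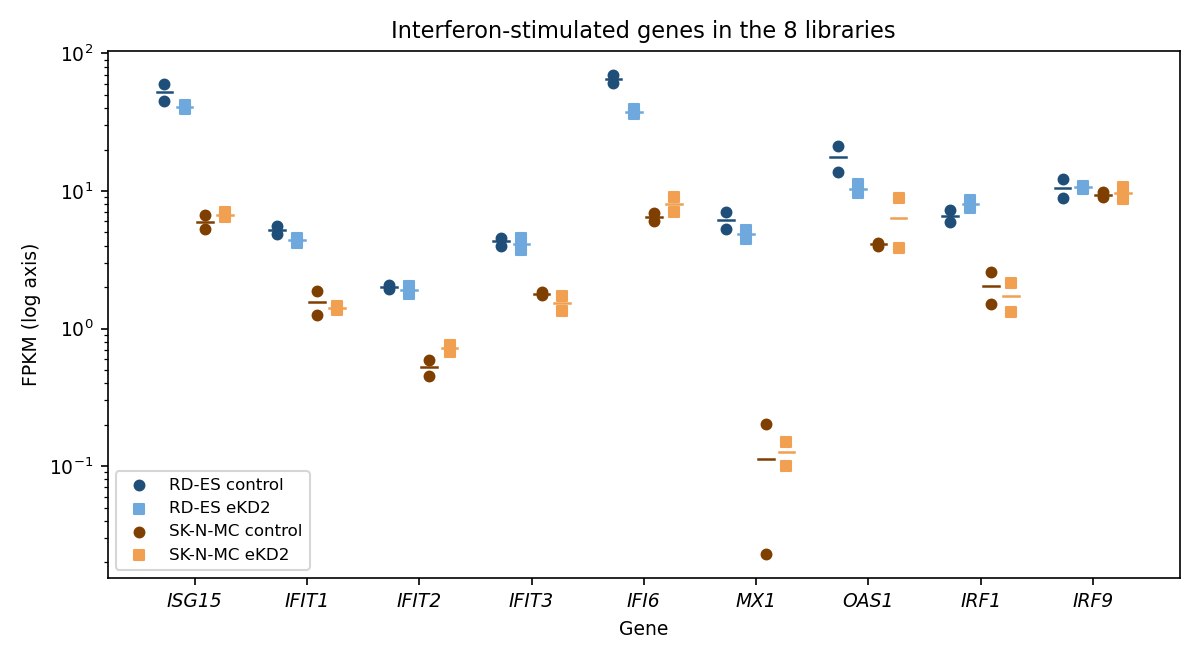
FPKM (log axis) of the 9 genes in each of the 8 libraries, circles for control and squares for eKD2, with a short bar at the mean of each group of 2. The 4 SK-N-MC libraries sit below the 4 RD-ES libraries for every gene but IRF9, whose 8 values run from 8.78 to 12.2 FPKM.

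ISG15, a ubiquitin-like protein that is conjugated to other proteins after interferon, was at 45.4 and 59.9 FPKM in the RD-ES controls against 39.4 and 42.2 with eKD2. SK-N-MC had 5.31 and 6.64 FPKM in its controls and 6.99 and 6.50 with eKD2. Both RD-ES eKD2 libraries lay below both controls, whereas the ranges overlapped in SK-N-MC. The differences were -0.35 (95% interval -0.73 to 0.037, adjusted p = 0.45) and 0.16 (-0.23 to 0.54, adjusted p = 0.75) on the log2(FPKM + 1) scale, and neither passed the test. In bulk RNA, a lower level in every cell and fewer cells with the transcript cannot be told apart.

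IFI6, a small mitochondrial and endoplasmic reticulum protein with antiviral activity, had the lowest p of the members with eKD2. It stood at 61.1 and 70.0 FPKM in the RD-ES controls and at 39.1 and 36.2 with eKD2. That is a mean of 65.6 ± 6.25 against 37.7 ± 2.09 FPKM (SD, n = 2), a difference of -42.6%. For SK-N-MC, 6.97 and 6.05 FPKM were listed in the controls and 9.07 and 7.06 with eKD2. The groups did not overlap in either line, and lay in opposite directions. The RD-ES difference of -0.78 (-1.12 to -0.44) had an unadjusted p of 0.0013 and did not pass over all genes (adjusted p = 0.15, 0.14 to 0.47 over the alternatives). The SK-N-MC difference was 0.27 (-0.075 to 0.61, adjusted p = 0.50). The test of the difference between the lines gave 1.05 (0.57 to 1.53, unadjusted p = 0.0018, adjusted p = 0.16).

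OAS1, which makes the 2-5A signal that activates RNase L on double-stranded RNA, was at 13.7 and 21.4 FPKM in the RD-ES controls and 9.67 and 11.2 with eKD2. The SK-N-MC controls had 3.96 and 4.21 FPKM and the eKD2 libraries 3.84 and 8.96. The last library stood well above the other three of its line. The differences were -0.67 (-1.55 to 0.21, adjusted p = 0.52) and 0.45 (-0.43 to 1.33, adjusted p = 0.67). Without SK-N-MC eKD2 replicate 2 the second was -0.071.

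MX1, a GTPase that blocks incoming viral nucleocapsids, was at 7.06 and 5.33 FPKM in the RD-ES controls and 4.50 and 5.21 with eKD2. It was close to 0 in SK-N-MC, at 0.203 and 0.023 FPKM in the controls and 0.101 and 0.151 with eKD2. Its differences were -0.29 (adjusted p = 0.58) and 0.021 (adjusted p = 0.99).

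The IFIT proteins bind viral RNA and hold back its translation. IFIT1 was at 5.58 and 4.85 FPKM in the RD-ES controls and 4.52 and 4.22 with eKD2, and at 1.87 and 1.26 in the SK-N-MC controls and 1.46 and 1.35 with eKD2. IFIT2 was at 2.08 and 1.95 FPKM in the RD-ES controls and 1.78 and 2.05 with eKD2, and at 0.594 and 0.451 in the SK-N-MC controls and 0.761 and 0.673 with eKD2. IFIT3 was at 4.57 and 4.01 FPKM in the RD-ES controls and 4.53 and 3.71 with eKD2, and at 1.84 and 1.74 in the SK-N-MC controls and 1.34 and 1.72 with eKD2. The eKD2 differences of the 3 genes ran from -0.21 (IFIT1) to -0.05 (IFIT2 and IFIT3) in RD-ES and from -0.15 (IFIT3) to 0.17 (IFIT2) in SK-N-MC, with adjusted p from 0.63 to 0.94. Ranges of eKD2 and control did not overlap for IFIT1 in RD-ES (lower in eKD2), IFIT2 in SK-N-MC (higher) and IFIT3 in SK-N-MC (lower).

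Of the transcription factors on the list, IRF1 was at 5.92 and 7.24 FPKM in the RD-ES controls and 7.47 and 8.61 with eKD2, the 1 member whose eKD2 libraries lay above the controls in that line (0.26, adjusted p = 0.69). Its SK-N-MC values were 2.56 and 1.51 FPKM in the controls and 1.32 and 2.13 with eKD2 (-0.15, adjusted p = 0.86). IRF9, the DNA-binding partner of STAT2, was at 12.2 and 8.93 FPKM in the RD-ES controls and 10.3 and 10.9 with eKD2, and at 9.03 and 9.80 in the SK-N-MC controls and 8.78 and 10.6 with eKD2. Its differences of 0.020 and 0.034 (adjusted p = 0.99 and 0.97) were within the spread of the replicates.

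With eKD2 in RD-ES, 0 of the 9 genes passed an adjusted p under 0.05 by limma, where 0.343% of all genes tested did, and 1 (IFI6, lower) had an unadjusted p under 0.05, against 12.3% of all genes in either direction and 3.79% lower. A negative difference was found for 7 of the 9, with a median of -0.21 beside 0.031 over all genes. The eKD2 libraries lay wholly below the controls for 5 (15.1% of all genes) and wholly above for 1 (24.2% of all genes). In SK-N-MC 0 of the 9 passed (0.323% of all genes), 0 had an unadjusted p under 0.05 (13% of all genes), and 6 differences were positive and 3 negative, with a median of 0.034 beside -0.0049 over all genes. There the eKD2 libraries lay wholly above for 2 (22.2% of all genes) and wholly below for 1 (25.1%). The test of the difference between lines called 0 of the 9 (0.244% of all genes), with IFI6 alone at an unadjusted p under 0.05 (13.5% of all genes).

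The intervals show which inductions on the log2(FPKM + 1) scale these libraries leave room for. That scale understates the change of low genes, so the limits do not bound a fold induction for them. An example is MX1 in SK-N-MC, with a control mean of 0.113 FPKM and an upper limit of 0.49. The upper 95% limit of the eKD2 difference in RD-ES ran from -0.44 (IFI6) and 0.037 (ISG15) to 0.82 (IRF1), and in SK-N-MC from 0.23 (IFIT3) to 1.33 (OAS1). The smallest p of an exact two-sided permutation test with 2 libraries a side is 0.333, so the limits and p-values rest on the spread that limma shares between genes and groups.

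**Figure D2:**
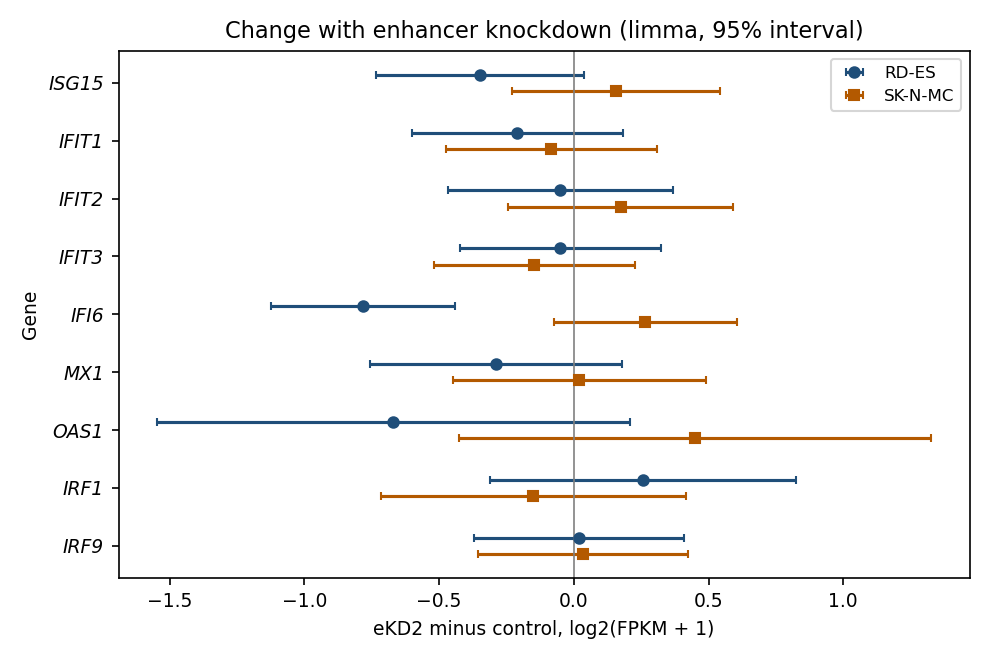
Difference between eKD2 and control (horizontal axis, log2(FPKM + 1)) of the 9 genes in RD-ES (circles) and SK-N-MC (squares), with 95% intervals from limma. The intervals cover 0 except for IFI6 in RD-ES (-1.12 to -0.44), which did not pass after adjustment over all genes.

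The interferon genes themselves were at or near 0. Of 21 interferon genes, 19 to 21 were listed at 0 in each library and none reached the filter. IFNB1, the first interferon made by most cells that sense nucleic acid, was listed at 0 in 7 libraries and at 0.105 FPKM in RD-ES eKD2 replicate 2. The highest value was 0.416 FPKM (IFNE in SK-N-MC control replicate 1). Such values rest on few reads, so a low expression of these genes was not detectable at this depth.

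Beyond the 9 genes, 141 pathway genes from 6 lists were read, of which 94 were tested. With eKD2, 0 of the 94 passed in RD-ES (8 at an unadjusted p under 0.05, 5 higher and 3 lower) and 0 in SK-N-MC (14, of which 7 were higher and 7 lower). Of all genes tested, 0.343% (RD-ES) and 0.323% (SK-N-MC) passed. At an unadjusted p under 0.05, 8.51% and 14.9% of the tested pathway genes stood beside 12.3% and 13% of all genes. Their median differences were -0.056 and -0.018.

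CXCL10, a chemokine induced by interferon gamma and by NF-κB, had the lowest p of the pathway genes in RD-ES. Its values were 38.0 and 35.1 FPKM in the RD-ES controls and 21.5 and 23.6 with eKD2, and 11.1 and 10.5 in the SK-N-MC controls and 6.93 and 6.07 with eKD2. Both eKD2 libraries were below both controls in each line, with means that differed by -38.3% and -39.6%. The differences of -0.67 (-0.91 to -0.43, unadjusted p = 0.00046) and -0.65 (-0.89 to -0.41, unadjusted p = 0.00055) did not pass over all genes (adjusted p = 0.092 and 0.093). Over the alternatives the adjusted p ran from 0.091 to 0.49 and from 0.081 to 0.37.

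Among receptors and signalling genes (17 of 18 tested), IFNGR1, a chain of the interferon gamma receptor, was at 26.8 and 26.6 FPKM in the RD-ES controls and 34.3 and 33.9 with eKD2. The SK-N-MC controls were higher, at 45.2 and 39.8 FPKM, and the eKD2 libraries were at 31.2 and 28.4. The groups did not overlap in either line and lay in opposite directions, with differences of 0.34 (adjusted p = 0.24) and -0.50 (adjusted p = 0.14). The difference between the lines was -0.84 (-1.15 to -0.53, unadjusted p = 0.00051) and did not pass after adjustment (adjusted p = 0.099). The kinase TYK2 differed by -0.30 in RD-ES (adjusted p = 0.29) and 0.094 in SK-N-MC (adjusted p = 0.74). STAT2 differed by -0.11 and 0.078 (adjusted p = 0.63 and 0.76).

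Of the other interferon-stimulated effectors (49 of 57 tested), 0 passed the test in either line, beside 0.343% (RD-ES) and 0.323% (SK-N-MC) of all genes. At an unadjusted p under 0.05 there were 2 for RD-ES, 1 higher and 1 lower with eKD2, beside 12.3% of all genes. For SK-N-MC there were 7, 6 higher and 1 lower, beside 13% of all genes in either direction and 5.71% higher. Both eKD2 libraries of SK-N-MC lay above both controls for 17 of the 49 and below them for 9, where 22.2% and 25.1% of all genes did so. In RD-ES, 5 lay above and 19 below, beside 24.2% and 15.1% of all genes. IFITM1, a membrane protein that hinders viral entry, differed by -0.63 in RD-ES (adjusted p = 0.29) and 0.040 in SK-N-MC (adjusted p = 0.97). RSAD2, the antiviral enzyme viperin, differed by 0.49 and 0.35 (adjusted p = 0.31 and 0.42), and its eKD2 libraries lay above both controls in each line. PARP12, an ADP-ribosyltransferase, differed by -0.30 and 0.63 (adjusted p = 0.51 and 0.21), and IFI44L by -0.19 and 0.35 (adjusted p = 0.54 and 0.28).

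Sensors and adaptors (15 of 21 tested) had 1 gene at an unadjusted p under 0.05 for RD-ES and 0 for SK-N-MC, beside the same 12.3% and 13% of all genes. The kinase TBK1, which activates IRF3, differed by 0.29 in RD-ES (adjusted p = 0.40), and the adaptor MYD88 by -0.23 (adjusted p = 0.57). In SK-N-MC the ubiquitin ligase TRAF6 differed by -0.40 (adjusted p = 0.40) and IRF3 by 0.29 (adjusted p = 0.45). Among other factors of the IRF family and their partners (6 of 10 tested), IRF2, an antagonist of IRF1, differed by 0.61 and 0.44 (adjusted p = 0.23 and 0.32). Its eKD2 libraries lay above both controls in each line (unadjusted p = 0.0070 and 0.028 by limma). Of the 6, 2 lay above and 0 below in RD-ES, beside 24.2% and 15.1% of all genes. In SK-N-MC 2 lay above and 3 below, beside 22.2% and 25.1% of all genes. IRF7, which amplifies interferon production, differed by -0.26 and -0.38 (adjusted p = 0.60 and 0.45), and IRF2BP2 by 0.047 and -0.37 (adjusted p = 0.93 and 0.32). Of genes induced by interferon gamma (11 of 19 tested), 2 had an unadjusted p under 0.05 in each line, beside 12.3% and 13% of all genes. In RD-ES 3 of the 11 lay above and 5 below, and in SK-N-MC 3 above and 2 below, beside the same shares of all genes. ICAM1, an adhesion molecule, differed by 0.40 in RD-ES (adjusted p = 0.36) and 0.084 in SK-N-MC (adjusted p = 0.87). GBP1, a guanylate-binding protein, differed by -0.29 in RD-ES (adjusted p = 0.48) and -0.50 in SK-N-MC (adjusted p = 0.25).

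**Figure D3:**
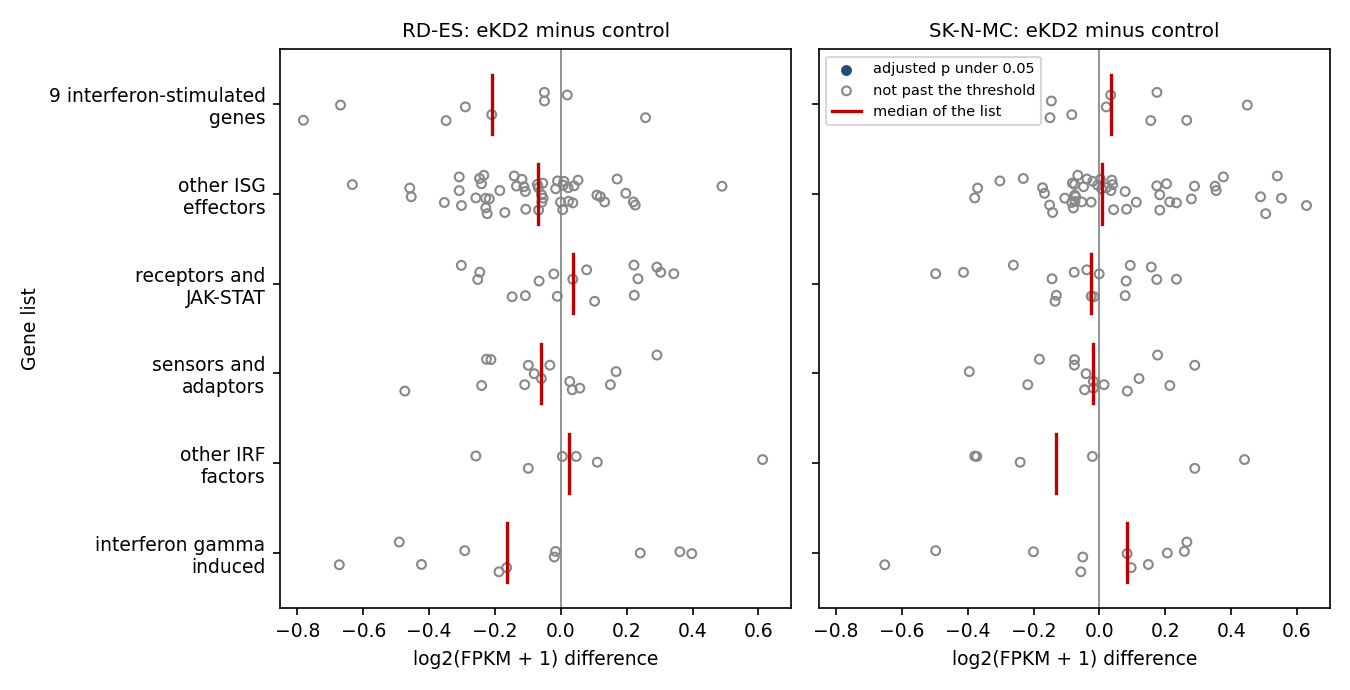
Difference between eKD2 and control (horizontal axis, log2(FPKM + 1)) of each tested gene of the 9 and of 5 further interferon lists in RD-ES (left) and SK-N-MC (right), with the median of each list as a bar. All points are open because 0 of these genes passed an adjusted p under 0.05, beside 0.343% and 0.323% of all genes tested. The medians of the 9 genes are -0.21 and 0.034.

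The larger contrast was between the lines. In control cells, 8 of the 9 genes passed as lower in SK-N-MC than in RD-ES (limma, adjusted p under 0.05), where 26.4% of all genes did so and 57.8% differed in either direction. Of the 7 members with a SK-N-MC control mean of at least 1 FPKM, 6 were called lower, beside 23.7% of all genes with such a mean. MX1 and IFIT2 were under it, passed the filter through RD-ES and had to differ. The mean FPKM in RD-ES control was 10.1 times that in SK-N-MC control for IFI6, 8.81 times for ISG15, 4.29 for OAS1, 3.86 for IFIT2, 3.33 for IFIT1, 3.23 for IRF1 and 2.40 for IFIT3. MX1 was at 6.20 ± 1.23 FPKM against 0.113 ± 0.127 (SD, n = 2). On the log2(FPKM + 1) scale the 8 differences ran from -3.15 (IFI6, adjusted p = 2.3e-05) to -0.92 (IFIT3, adjusted p = 0.003). IRF9 was the exception, at 10.6 ± 2.30 against 9.42 ± 0.542 FPKM and a difference of -0.14 (-0.53 to 0.25, adjusted p = 0.49).

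The median over the 9 was -1.34, beside 0.065 over all genes. The same 8 genes had all 4 SK-N-MC libraries below all 4 RD-ES libraries, as had 29% of all genes. For 2 of them, MX1 and IFIT2, the SK-N-MC control mean was under 1 FPKM, so that they passed the filter through RD-ES and had to differ. The origin of a line and any batch in which it was handled cannot be told apart. The leukocyte marker PTPRC moved with the line as given above, and its part was not tested.

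The order of the genes also differed. In RD-ES control it ran from IFI6 (65.6 FPKM) over ISG15 (52.7), OAS1 (17.5), IRF9 (10.6), IRF1 (6.58), MX1 (6.20), IFIT1 (5.22) and IFIT3 (4.29) to IFIT2 (2.02), with the libraries of IRF1, MX1 and IFIT1 overlapping between neighbours. In SK-N-MC control IRF9 came first (9.42 FPKM), then IFI6 (6.51) and ISG15 (5.98), which overlapped, OAS1 (4.09), then IRF1 (2.04), IFIT3 (1.79) and IFIT1 (1.57), which overlapped, IFIT2 (0.522) and MX1 (0.113). With eKD2, ISG15 (40.8 FPKM) stood above IFI6 (37.7) in RD-ES, while IRF9 (9.70) and IFI6 (8.06) overlapped at the top in SK-N-MC. FPKM is per length of transcript, which allows levels of different genes to be set side by side.

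Of the 94 pathway genes, 72 differed between the control lines (76.6%, beside 57.8% of all genes), with a median of -0.91. The 72 were 58 lower and 14 higher in SK-N-MC, where 26.4% of all genes were called lower. For 25 of the 58 the SK-N-MC control mean was under 1 FPKM, so that they passed the filter through RD-ES. The other 33 were of the 69 that reached 1 FPKM in that group, beside 23.7% of all genes with such a mean. Other interferon-stimulated effectors had 38 of 49 passing as lower in SK-N-MC, beside the same 26.4% of all genes, and 3 as higher, with a median of -1.34. The 3 included RSAD2 (0.95, adjusted p = 0.003). Sensors and adaptors had 9 lower and 4 higher of 15, and genes induced by interferon gamma 8 lower and 1 higher of 11. Each of these lists includes genes with a SK-N-MC control mean under 1 FPKM, which passed the filter through RD-ES and had to differ. The counts and median of the lists were not split by this and are a description. Receptors and signalling genes had 4 lower and 6 higher of 17, and their share called (58.8%) was near the 57.8% of all genes.

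Among the components that carry the signal, STAT2 was 0.49 higher in SK-N-MC (adjusted p = 0.003) at 30.4 and 31.4 FPKM against 23.1 and 20.6. IRF7 was at 0.725 and 1.01 FPKM in SK-N-MC control and 9.23 and 12.5 in RD-ES control, a difference of -2.66. Its SK-N-MC control mean was under 1 FPKM, so it passed the filter through RD-ES and had to differ.

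The largest line differences among pathway genes were those of ICAM1 (-5.96), BST2 (-5.48), a membrane protein that tethers budding virus, IDO1 (5.42), a tryptophan-degrading enzyme, OAS3 (-4.77), PSMB8 (-4.10), a subunit of the immunoproteasome, and SP100 (-3.83), a nuclear body protein. ICAM1, PSMB8 and SP100 had a mean under 1 FPKM in SK-N-MC control, and IDO1 in RD-ES control, so these 4 passed the filter through the other line and had to differ, and the values are a description. ICAM1 was at 58.8 and 74.9 FPKM in RD-ES control and 0.175 and 0 in SK-N-MC control, and IDO1 went the other way at 0.467 and 0 FPKM in RD-ES control and 50.6 and 51.2 in SK-N-MC control. BST2 was at 135 and 142 FPKM in RD-ES control and 1.02 and 3.78 in SK-N-MC control.

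**Figure D4:**
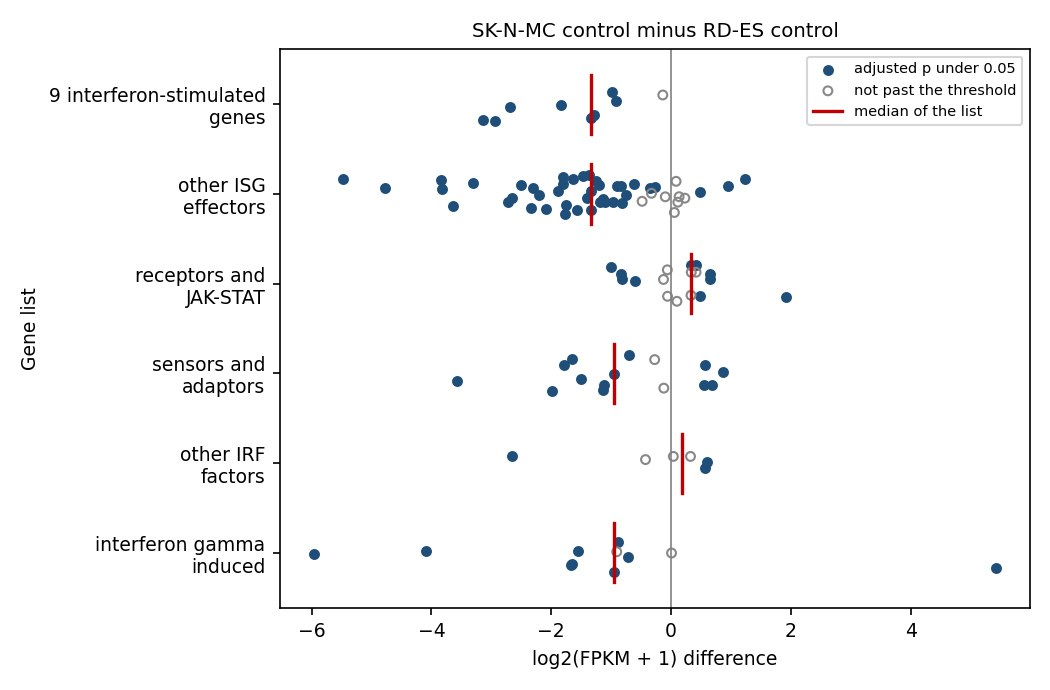
Difference between SK-N-MC control and RD-ES control (horizontal axis, log2(FPKM + 1)) of each tested gene in the same lists, filled where the adjusted p was under 0.05, with the median of each list as a bar. The 9 genes lie at or left of -0.14, and the single point far to the right is IDO1 (5.42).

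The mean of the 9 genes was also taken in each library. This mean log2(FPKM + 1), taken about the mean of each line, was 0.10 and 0.13 in the RD-ES controls and -0.14 and -0.094 with eKD2. For SK-N-MC the means were 0.015 and -0.095 in the controls and -0.041 and 0.12 with eKD2. The RD-ES groups did not overlap, and the SK-N-MC groups did. The 5 genes outside the lists whose values followed this mean most closely were ADCY6, HJURP, PPP1R10, DTYMK and SLC6A8, with Pearson's r of 0.966 to 0.984 over the 8 libraries, which share their groups and depth. They were picked for the highest r among all tested genes outside the lists. High values over 8 libraries follow from that choice, and likeness was not tested. ADCY6, an adenylyl cyclase, was at 14.3 and 15.2 FPKM in the RD-ES controls and 9.84 and 10.8 with eKD2, and at 10.3 and 8.05 in the SK-N-MC controls and 9.87 and 12.5 with eKD2.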

How the data were processed

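The authors sequenced poly-A libraries (single-end reads of 75 bases), aligned them with STAR to GRCh37 and derived FPKM for each gene in each library by cufflinks and cuffnorm. These deposited FPKM values were used, and the read counts behind the test of the study were not used here. The 9 genes and the pathway lists were chosen with earlier results of these data known.

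Values were compared as log2(FPKM + 1), which understates the change of low genes, for the 15175 of 60332 genes whose 8 libraries averaged 1 FPKM or more. limma 3.58.1 (lmFit and eBayes with trend, R 4.3.3) fitted the 4 groups of 2 libraries together, with Benjamini-Hochberg adjustment over all genes tested and a threshold of 0.05. It was tested on simulated data first. Contrasts were eKD2 against control in each line, the difference between these changes, and SK-N-MC control against RD-ES control.

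Genes named beside the 9 were, per list, those called with eKD2 and the 2 of lowest p in each line, the 6 largest called line differences, and STAT2, IRF7, IFNB1, LOXHD1 and ZNF10, with 1 further gene not reported here. The 5 most similar genes had the highest Pearson's r. Alternatives were a pseudocount of 0.1, no filter, other scalings, each line fitted alone, no trend, a replicate block, summed rows per symbol, and leaving out each library. The libraries were not treated as paired by replicate number in the main fit. Deviations of same-numbered libraries correlated at 0.056 for RD-ES, 0.027 for SK-N-MC and 0.050 between the controls of both lines. Whether same-numbered libraries were handled together is not known from these values.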

Additional observations from a re-analysis of the deposited data

How the results depend on the processing

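The counts of called genes, among the 9 and among the 94 pathway genes in all 4 contrasts, kept their values or stayed within 1.5 times under every alternative run (126 values). With eKD2 all were 0. The main fit called only 0.343% (RD-ES), 0.323% (SK-N-MC) and 0.244% (difference between lines) of all genes, so counts that stayed at 0 say little. Between the control lines 8 of the 9 passed throughout, and 66 to 80 pathway genes. With the replicate number as a block, the counts were 0 of 9 in each line and 8 of 9 between lines, and ZNF10 alone lost its calls (adjusted p = 0.11 for RD-ES and 0.094 for SK-N-MC). The block moved the pathway genes at an unadjusted p under 0.05 in the difference between lines from 9 to 15, and no filter made it 14 of 121. That count for eKD2 in RD-ES was 15 of 121 with no filter. Without any 1 of SK-N-MC control replicate 2, SK-N-MC eKD2 replicate 1 and SK-N-MC eKD2 replicate 2, the 14 in SK-N-MC became 8. Over the alternatives the 9 genes had 1 or 2 at that p in RD-ES, 0 or 1 in SK-N-MC and 1 to 3 in the difference between lines.

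Scaling to equal medians turned the RD-ES difference of IRF9 to -0.047 and IRF2BP2 to -0.024. Quantile normalization turned IRF9 in RD-ES to -0.040 and MX1 in SK-N-MC to -0.086. These 2 scalings moved the line median of all genes from 0.065 to -0.042 and 0. The line median of the 9 was -1.77 with a pseudocount of 0.1, and -1.59 and -1.11 without SK-N-MC control replicates 1 and 2.

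Leaving out 1 library turned the sign of small differences, none of which had passed. In RD-ES the ranges were -0.19 to 0.22 for IRF9, -0.15 to 0.25 for IRF2BP2, -0.17 to 0.066 for IFIT3, -0.12 to 0.019 for IFIT2 and -0.24 to 0.038 for IRF3. In SK-N-MC they were -0.096 to 0.14 for MX1, -0.26 to 0.090 for IFIT1, -0.40 to 0.10 for IRF1, -0.089 to 0.16 for IRF9, -0.071 to 0.97 for OAS1, -0.19 to 0.27 for IFITM1, -0.032 to 0.20 for ICAM1 and -0.00069 to 0.19 for TYK2. Between lines IRF9 ran from -0.34 to 0.068. The cause was not tested. A group left with 1 library was assumed to vary like the others. With 2 libraries per group, small changes of low genes such as MX1 in SK-N-MC were not detectable.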
